A study of Mus musculus with 9 samples.

Results

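Ovarian surface epithelium is marked by 10 genes that were followed in whole mouse ovaries: Krt7, Krt8, Krt18, Krt19, Upk1b, Upk3b, Msln, Cldn15, Lgals7 and Muc16. They were taken by symbol from the deposited expression table, where all 10 members are among 54838 genes. The table gives RPKM, the reads of a gene per kilobase of its exons scaled by the reads of its library. It covers 9 libraries of total RNA, 3 for each of 3 genotypes, from adult ovaries 40 h after PMSG, a hormone preparation that makes follicles grow. The group labelled DKO LXR TG-AMH-LXRb is a knockout of the liver X receptors (LXR) that also carries a transgene named for AMH and LXRb, and its libraries are called transgene-labelled here. The group labelled DKO LXR has the knockout alone, and the group labelled WT has neither. Every library therefore shares the tissue, the age class and the hormone treatment, and the transgene-labelled libraries share the knockout with the DKO libraries. The labels name AMH, the anti-Müllerian hormone made by granulosa cells, but give neither the promoter used nor the part of each receptor gene that was deleted. They do not say that the libraries came from separate animals, so p-values measure only how much these samples differ among themselves, which may be technical.

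The ovarian surface epithelium is a single sheet of mesothelial-like cells that covers the ovary, is broken at each ovulation and is rebuilt afterwards. It keeps the simple-epithelial keratins 7, 8, 18 and 19, which pair as type I and type II chains into intermediate filaments. Like the peritoneal lining it also carries mesothelin (Msln) and the membrane mucin Muc16, which bind each other at the surface of human cells, and uroplakins, which are otherwise best known from the bladder lining. Cldn15 is a claudin of tight junctions, and Lgals7 encodes galectin-7, a carbohydrate-binding protein of stratified epithelia. This layer is a thin part of a whole ovary, and which cells the members' reads came from was not tested. Fewer cells of a type and less RNA per cell cannot be told apart.

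All 10 are protein-coding genes, placed here on GRCm38 (mm10) by GENCODE M21. Krt7 (ENSMUSG00000023039, chr15:101411043-101430313, plus strand), Krt8 (ENSMUSG00000049382, chr15:101996698-102004482, minus strand) and Krt18 (ENSMUSG00000023043, chr15:102028180-102032027, plus strand) lie in the same keratin cluster. Krt19 (ENSMUSG00000020911) lies in the other keratin cluster, at chr11:100140810-100148665 on the minus strand. Upk3b (ENSMUSG00000042985, chr5:136038496-136046487) and Cldn15 (ENSMUSG00000001739, chr5:136966616-136975858) are on the same chromosome, both on the plus strand. Upk1b (ENSMUSG00000049436) is at chr16:38773184-38800328 and Msln (ENSMUSG00000063011) at chr17:25748613-25754378, both on the minus strand. Lgals7 (ENSMUSG00000053522) is at chr7:28863853-28866284 on the plus strand, and Muc16 (ENSMUSG00000109564) at chr9:18495455-18674530 on the minus strand.

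Recovered reads per library were between 40.1 M and 59.4 M. Behind single member values stood 56 reads (Lgals7 in transgene-labelled replicate 3) to 2674 reads (Upk3b in WT replicate 1), leaving out Msln, whose values gave no whole reads. Nr1h3, which encodes LXRa, was at 0.538 to 0.824 RPKM in the transgene-labelled libraries, 0.590 to 1.11 RPKM in the DKO libraries and 4.12 to 5.47 RPKM in the WT libraries. Nr1h2, which encodes LXRb, was at 5.14 to 5.96 RPKM in the transgene-labelled libraries, 5.79 to 7.79 RPKM in the DKO libraries and 15.2 to 22.5 RPKM in the WT libraries. The Nr1h2 row was therefore no higher in the transgene-labelled than in the DKO libraries. Granulosa cell markers summed to 1231 to 2707 RPKM over all libraries and oocyte markers to 16.1 to 78.5 RPKM, so the tissue label had its defining markers. The 9 oviduct epithelium markers summed to 10.9 to 14.1 RPKM in the transgene-labelled, 11.9 to 22.6 RPKM in the DKO and 8.48 to 9.33 RPKM in the WT libraries. Among them Pax8 and Foxj1 stayed at or below 0.0380 and 0.186 RPKM in every library, Tppp3 was at 5.14 to 17.8 RPKM, and Ovgp1, an oviduct glycoprotein, averaged 0.764 RPKM in the transgene-labelled, 0.989 RPKM in the DKO and 0.134 RPKM in the WT libraries. Of the 4 tested (limma, adjusted p under 0.05), 1 was higher and 0 lower in the transgene-labelled against the WT libraries. Of all genes tested 29.1% were higher and 22.3% lower in that comparison. In the DKO against the WT libraries 2 of the 4 were higher and 1 lower, and of all genes 30.8% were higher and 25.9% lower. The part of the oviduct markers in the members' values was not tested.

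The promoters of 4 members are given because they span how the members moved: Krt8 and Krt18 were the steadiest keratins, and Upk3b and Lgals7 were among the members that differed most between genotypes. Each window runs from 250 bases before to 50 bases after the RefSeq start, read on the gene's strand in GRCm38.p6. Capitals mark the letters of a TATA box (TATAAA) in Krt8 and of a GC box (GGGCGG) in Lgals7. The capitals in Krt8 cover 2 overlapping matches on opposite strands, which begin at -3 and -1 and so span the RefSeq start.
Krt8 (chr15:102004293-102004592, minus strand): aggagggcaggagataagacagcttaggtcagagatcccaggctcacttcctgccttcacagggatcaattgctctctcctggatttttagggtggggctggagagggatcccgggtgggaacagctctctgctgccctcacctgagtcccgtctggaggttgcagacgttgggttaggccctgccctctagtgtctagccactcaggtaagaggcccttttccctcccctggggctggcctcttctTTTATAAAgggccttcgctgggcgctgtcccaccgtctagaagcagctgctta
Krt18 (chr15:102027966-102028265, plus strand): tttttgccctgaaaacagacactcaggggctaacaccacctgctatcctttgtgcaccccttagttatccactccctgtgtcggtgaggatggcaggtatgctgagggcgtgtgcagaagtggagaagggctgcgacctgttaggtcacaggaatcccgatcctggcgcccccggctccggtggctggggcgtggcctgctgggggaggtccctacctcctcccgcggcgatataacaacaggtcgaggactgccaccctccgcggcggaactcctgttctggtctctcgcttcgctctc
Upk3b (chr5:136038246-136038545, plus strand): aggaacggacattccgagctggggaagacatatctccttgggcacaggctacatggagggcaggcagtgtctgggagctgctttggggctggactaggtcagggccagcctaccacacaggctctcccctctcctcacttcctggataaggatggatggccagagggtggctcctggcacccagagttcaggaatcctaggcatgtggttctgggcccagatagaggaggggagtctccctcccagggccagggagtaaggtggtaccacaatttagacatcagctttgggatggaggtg
Lgals7 (chr7:28864136-28864435, plus strand): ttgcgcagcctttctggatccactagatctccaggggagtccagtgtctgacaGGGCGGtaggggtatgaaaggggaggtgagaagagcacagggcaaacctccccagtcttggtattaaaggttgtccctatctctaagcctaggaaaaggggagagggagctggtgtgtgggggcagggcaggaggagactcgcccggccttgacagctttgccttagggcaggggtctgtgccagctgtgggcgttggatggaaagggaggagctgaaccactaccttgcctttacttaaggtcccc
RefSeq promoter windows were matched for 7 of the 10 members (Krt7, Krt8, Krt18, Upk3b, Cldn15, Lgals7 and Muc16). Searched on both strands, TATAAA was found in 1 of these 7 windows against 13.6% of 32851 windows of the same length, and GGGCGG in 3 of 7 against 35.7%. The AP-1 site TGANTCA was found in 1 of 7 against 7.81%, and CCAAT in 0 of 7 against 37.4%. The element DR4 (AGGTCA repeated after a gap of 4 bases), which LXR is known to bind, was also found in 0 of 7 windows, against 0.015%. GC content was 58.0% for Krt8, 61.3% for Krt18, 58.7% for Upk3b and 57.7% for Lgals7, against a median of 52.7% over all windows. These matches describe the letters only.

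Upk3b had the highest mean over the 9 libraries, at 7.50 RPKM, ahead of Krt8 at 6.87 RPKM and Krt19 at 5.16 RPKM. Upk1b (4.11 RPKM), Lgals7 (3.87 RPKM) and Krt18 (3.64 RPKM) followed, then Msln (1.90 RPKM) and Cldn15 (1.82 RPKM). Krt7 and Muc16 were the weakest, at 0.479 and 0.315 RPKM. These are levels per exon length, and the library ranges of neighbours in the order overlap everywhere except between Cldn15 (lowest library 0.945 RPKM) and Krt7 (highest library 0.818 RPKM). The span from the lowest to the highest library was 2.15-fold for Krt8, 2.56-fold for Cldn15 and 2.60-fold for Krt18, but 10.6-fold for Upk1b, 13.8-fold for Msln, 14.5-fold for Muc16 and 17.0-fold for Upk3b.

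**Figure D1:**
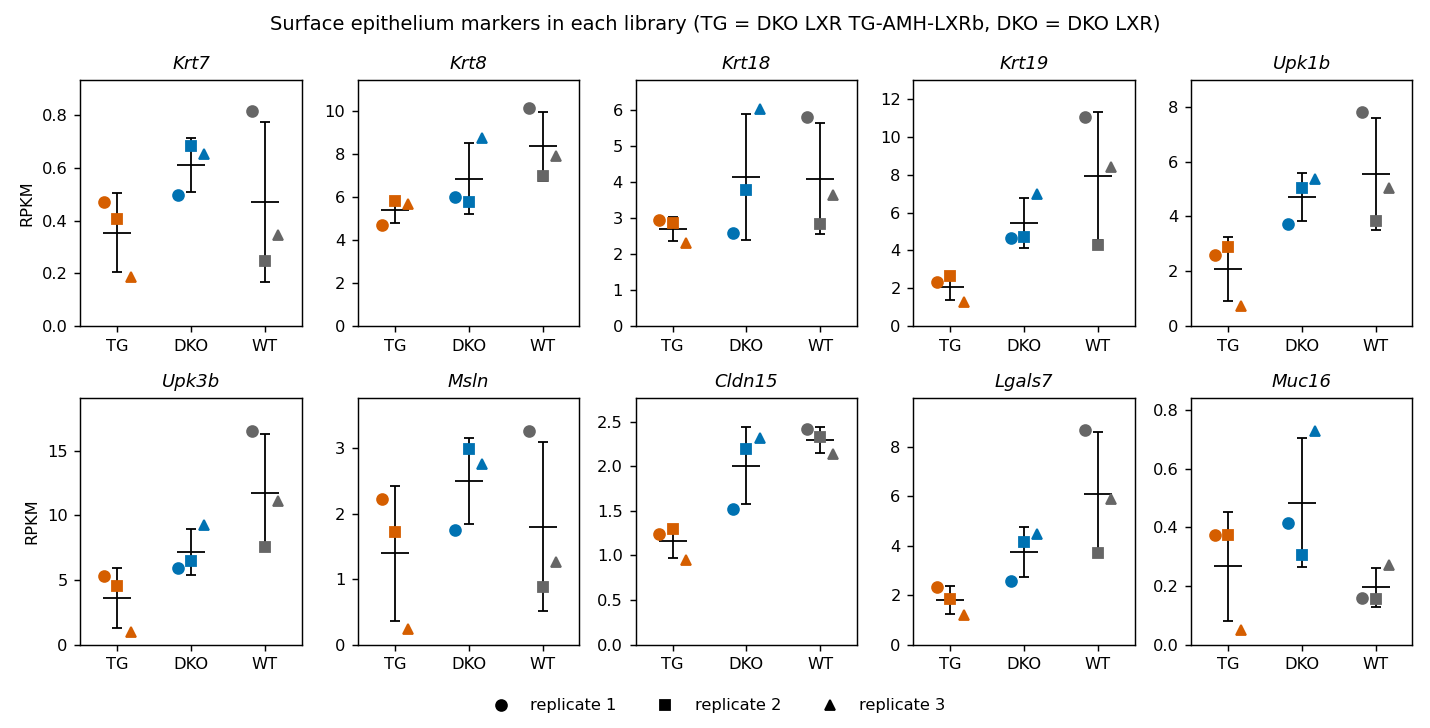
RPKM of the 10 members in each library, with the mean and SD (bars, n = 3) of each genotype; TG stands for DKO LXR TG-AMH-LXRb and DKO for DKO LXR, and marker shapes give the replicate. Upk3b was at 0.973 RPKM in transgene-labelled replicate 3 and at 16.5 RPKM in WT replicate 1.

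The transgene-labelled libraries were compared with the WT libraries first, since that is where members passed the test. Of the 9 members tested, 6 were lower and 0 were higher at an adjusted p under 0.05 (limma on log2(RPKM + 0.5), Benjamini-Hochberg over 18889 genes). The background for the same rule is 22.3% of genes lower and 29.1% higher. The members' median change was -0.76, against 0.03 over all genes tested. The 6 lower members were Krt8, Krt19, Upk1b, Upk3b, Cldn15 and Lgals7, and in these 6 of the 10 members every transgene-labelled library lay below every WT library, as did 30.2% of all genes tested. The deposited scaling differs between genotypes: with TPM, which gives every library the same sum, the median of all genes against WT moved up by 0.45 (log2), 91.0% of called genes were higher in place of 56.6%, and Krt19, Upk3b and Lgals7 were the members still called lower. The members' median was then -0.35 against 0.48 over all genes, with Upk1b at -0.86 (adjusted p = 0.0605) and Cldn15 at -0.35 (adjusted p = 0.0709). All 6 changes stayed negative under every scaling tried.

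Krt19, a type I keratin of simple epithelia, was at 2.32, 2.66 and 1.27 RPKM in the transgene-labelled libraries, at 4.63, 4.73 and 6.997 RPKM in the DKO libraries and at 11.1, 4.31 and 8.44 RPKM in the WT libraries. All 3 transgene-labelled libraries were below all others. The log2 change against WT was -1.66 ± 0.34 (SE, 95% interval -2.42 to -0.90, adjusted p = 0.00351).

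Krt8, a type II keratin that pairs with keratin 18, was at 4.71, 5.80 and 5.66 RPKM in the transgene-labelled libraries, at 5.997, 5.79 and 8.76 RPKM in the DKO libraries and at 10.1, 6.999 and 7.93 RPKM in the WT libraries. Its transgene-labelled libraries were below the WT libraries and overlapped the DKO libraries in replicate 2 of each. The change against WT was the smallest of the 6 lower members, at -0.58 ± 0.18 (SE, limma adjusted p = 0.0248). The call was lost with TPM, with the plain total of reads and with limma-voom on reads, where the change was -0.08, -0.33 and -0.36, and without WT replicate 1 or transgene-labelled replicate 1 or 3 (adjusted p of 0.0833, 0.0869 and 0.0514). The pseudogene Krt8-ps was listed at 0.268 to 0.394 of the Krt8 level in every library, and 101 bases of the Krt8 exons are shared with the opposite-strand lincRNA Gm36026. How reads were split among these genes is uncertain.

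Krt18 and Krt7 passed the test in no comparison with the deposited scaling. Krt18, the usual partner of keratin 8, was at 2.94, 2.85 and 2.32 RPKM in the transgene-labelled libraries, at 2.58, 3.77 and 6.03 RPKM in the DKO libraries and at 5.80, 2.83 and 3.63 RPKM in the WT libraries. Groups overlapped, and the change against WT was -0.47 ± 0.29 (SE, 95% interval -1.14 to 0.19, limma adjusted p = 0.207). Krt7, a type II keratin of simple epithelia, was at 0.471, 0.407 and 0.185 RPKM in the transgene-labelled libraries, at 0.496, 0.684 and 0.655 RPKM in the DKO libraries and at 0.818, 0.247 and 0.347 RPKM in the WT libraries. Its 3 transgene-labelled values were below the DKO values and within the WT range apart from replicate 3. Its change against WT was -0.16 ± 0.23 (SE, limma adjusted p = 0.591), and -0.74 with quantile normalization (adjusted p = 0.0272). Krt7 shares 77 bases with the antisense gene Gm671, and whether counting used strand is not given in the sources used here.

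Upk3b and Upk1b encode uroplakins, membrane proteins that form plaques in the bladder lining. Upk3b was at 5.27, 4.51 and 0.973 RPKM in the transgene-labelled libraries, at 5.92, 6.43 and 9.22 RPKM in the DKO libraries and at 16.5, 7.54 and 11.1 RPKM in the WT libraries. Its change against WT was the largest among the members in the negative direction, at -1.74 ± 0.49 (SE, 95% interval -2.86 to -0.62, limma adjusted p = 0.0168). Upk1b, a tetraspanin, was at 2.60, 2.88 and 0.740 RPKM in the transgene-labelled libraries, at 3.71, 5.03 and 5.36 RPKM in the DKO libraries and at 7.82, 3.84 and 5.02 RPKM in the WT libraries. In both genes every transgene-labelled library was below every other library, and replicate 3 was far below replicates 1 and 2. Upk1b changed by -1.31 ± 0.38 against WT (SE, limma adjusted p = 0.0190).

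Cldn15 was at 1.24, 1.29 and 0.945 RPKM in the transgene-labelled libraries, at 1.52, 2.19 and 2.31 RPKM in the DKO libraries and at 2.42, 2.33 and 2.13 RPKM in the WT libraries. This gave the smallest adjusted p of the members, with a change of -0.76 ± 0.15 against WT (SE, limma adjusted p = 0.00268). The WT libraries varied little for this gene, with a coefficient of variation of 6.27%. Lgals7 was at 2.34, 1.85 and 1.21 RPKM in the transgene-labelled libraries, at 2.57, 4.16 and 4.49 RPKM in the DKO libraries and at 8.69, 3.69 and 5.87 RPKM in the WT libraries. Its libraries were lowest in the transgene-labelled group, with a change against WT of -1.47 ± 0.31 (SE, limma adjusted p = 0.00419).

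Msln and Muc16 encode mesothelin and the mucin known in human as CA125. Msln was at 2.22, 1.72 and 0.237 RPKM in the transgene-labelled libraries, at 1.76, 3.00 and 2.76 RPKM in the DKO libraries and at 3.27, 0.878 and 1.26 RPKM in the WT libraries. The groups overlapped, the coefficient of variation was 74.0% in the transgene-labelled group and 71.3% in the WT group, and the change against WT was -0.35 ± 0.52 (SE, limma adjusted p = 0.599). Muc16 was at 0.374, 0.375 and 0.0503 RPKM in the transgene-labelled libraries, at 0.415, 0.306 and 0.730 RPKM in the DKO libraries and at 0.157, 0.157 and 0.271 RPKM in the WT libraries. It missed the filter of 0.5 RPKM in at least 3 libraries and was not tested with the others. For Muc16 an exact permutation test over libraries (two-sided) gave p = 0.8 for the transgene-labelled against the WT libraries, p = 0.4 against the DKO libraries, and p = 0.1 for DKO against WT, which is the smallest value that 3 against 3 libraries allow.

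The DKO libraries were compared with the WT libraries, which differ from them in their labels by the receptor knockout. Anything else that sets the WT libraries apart goes with the same labels and cannot be told apart from genotype. The nuclear RNA Malat1, for example, averaged 199 RPKM in the DKO and 7.38 RPKM in the WT libraries. None of the 9 tested members passed the test, in either direction, and none had an unadjusted p under 0.05 in limma, which 62.5% of all genes had; limma-voom on recovered reads also called 0. Over all genes tested, 30.8% were higher and 25.9% lower by the same rule. The members' median change was -0.18, against 0.02 over all genes. Its sign depends on the scaling: it was 0.27 with TPM, 0.086 with the plain total and 0.072 with limma-voom, and it ran from -0.39 (without WT replicate 2) to -0.037 (without DKO replicate 1) with 1 library left out. Upk3b had the largest negative value, -0.63 ± 0.49 (SE, 95% interval -1.75 to 0.49, limma adjusted p = 0.297), followed by Lgals7 at -0.59 ± 0.31 (SE, adjusted p = 0.129) and Krt19 at -0.44 ± 0.34 (SE, adjusted p = 0.289). Msln and Krt7 had positive values, 0.50 ± 0.52 and 0.24 ± 0.23 (SE). Muc16 was the member whose DKO libraries were all above the WT libraries, which 32.6% of all genes tested also were. Missing the threshold does not show that the members were alike, since the interval for Lgals7 ran from -1.30 to 0.11. With TPM, which moved the median of all genes by 0.48 (90.7% of called genes higher in place of 54.4%), the changes of Krt8, Krt18, Krt19, Upk1b and Cldn15 turned positive and Krt7 was called higher (adjusted p = 0.0435). Without WT replicate 2, Krt19 (-0.80, adjusted p = 0.0440) and Lgals7 (-0.88, adjusted p = 0.0342) were called lower, without DKO replicate 3 Krt8 was (-0.46, adjusted p = 0.0412), and quantile normalization called Cldn15 (-0.52, adjusted p = 0.0219).

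The transgene-labelled libraries were then compared with the DKO libraries, which differ from them in their labels by the transgene. No member passed the test in limma at an adjusted p under 0.05, and 4 of the 9 had an unadjusted p under 0.05, as did 15.8% of all genes; limma-voom also called 0. The background is 1.73% of genes lower and 0.498% higher. All 9 log2 changes were negative, with a median of -0.84 against 0.03 over all genes, and of -0.49 without transgene-labelled replicate 3. Krt19 changed by -1.23 ± 0.34 (SE, adjusted p = 0.114), Upk1b by -1.13 ± 0.38 (SE, adjusted p = 0.195), Lgals7 by -0.88 ± 0.31 (SE, adjusted p = 0.209) and Cldn15 by -0.59 ± 0.15 (SE, adjusted p = 0.0825). In Cldn15, Krt19, Krt7, Upk3b, Upk1b and Lgals7 all transgene-labelled libraries were below all DKO libraries, as in 12.1% of all genes tested. The interval for Upk3b ran from -2.23 to 0.00. Without DKO replicate 1, Cldn15 was called lower (-0.74, adjusted p = 0.0238). The same DKO libraries entered the comparison with WT, so these comparisons share samples.

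**Figure D2:**
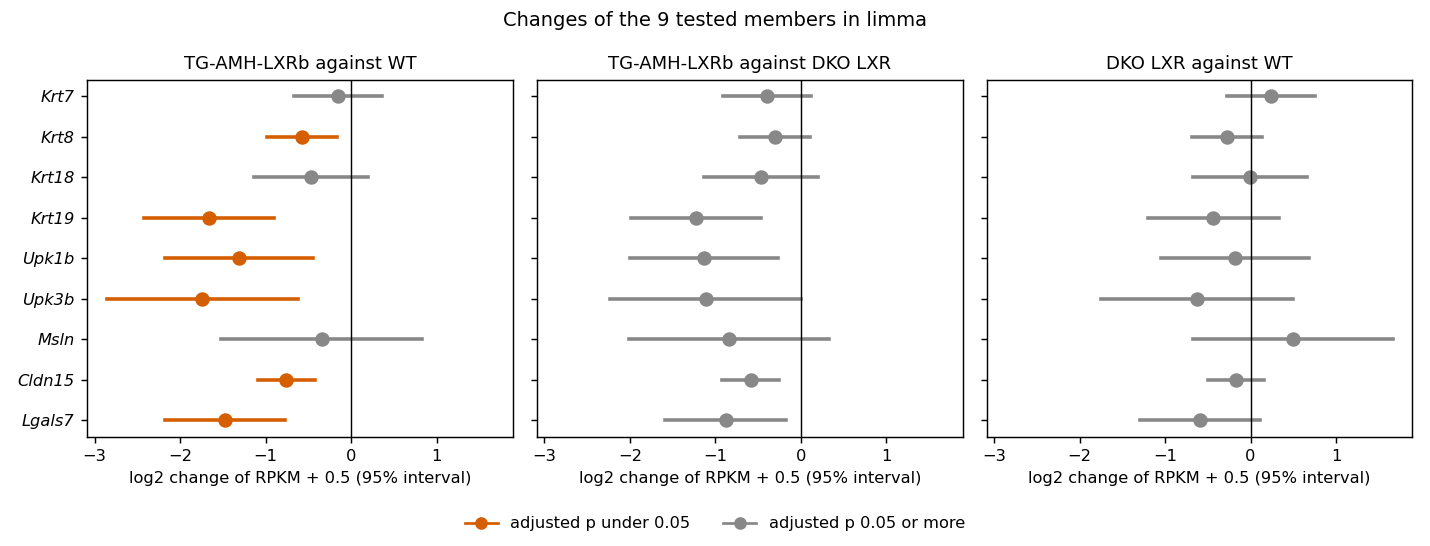
Log2 change of RPKM + 0.5 for the 9 tested members in the 3 comparisons (points, with 95% intervals from limma), orange where the adjusted p was under 0.05. Only the transgene-labelled against WT comparison had such members, 6 of 9, all of them negative.

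Libraries of one genotype differed in ways that touch these results. Transgene-labelled replicate 3 was the lowest of the 9 libraries for 8 of the 9 tested members, and for 4.45% of all genes tested. Of these members, 4 (Msln, Upk3b, Upk1b and Krt7) were below 0.5 times both other transgene-labelled libraries, which 0.773% of genes were. Relative to the mean of replicates 1 and 2, replicate 3 held Msln at 0.120, Muc16 at 0.134, Upk3b at 0.199 and Upk1b at 0.270, but Cldn15 at 0.748, Krt18 at 0.801 and Krt8 at 1.08. Among 16024 genes whose mean in replicates 1 and 2 was at least 1 RPKM, Msln had rank 10, Upk3b rank 20 and Upk1b rank 41 from the lowest ratio. The Upk3b to Krt8 ratio was 0.172 in that library and 0.778 to 1.63 in the other 8. Without transgene-labelled replicate 3, 5 of the 6 members remained lower against WT, and Krt8 changed by -0.61 (adjusted p = 0.0514), about as much as with all libraries.

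Other mesothelial genes were read beside the members in the same library. Lrrn4, a mesothelial membrane protein, stood at 0.217 of the mean of replicates 1 and 2, the stem-cell receptor Lgr5 at 0.295, the epithelial adhesion gene Epcam at 0.341, and Gpm6a at 0.477. Lgr5 was at 0.669, 2.20 and 0.422 RPKM in replicates 1, 2 and 3, so its ratio rests largely on a high replicate 2. Wt1, a transcription factor of the coelomic epithelium, was at 0.716, Aldh1a1 and Aldh1a2, which make retinoic acid, at 0.974 and 0.991, and the cadherin Cdh2 at 1.09. Aldh1a1 was at 418 to 1019 RPKM over the libraries, where the 10 members summed to 13.6 to 66.7 RPKM. Which cells the reads of these mesothelial genes came from was not tested. Ratios in lists of other cells were 0.720 to 1.06 for fibroblast and stroma genes, 0.972 to 1.06 for endothelium, 0.856 to 1.23 for granulosa cells, 0.917 to 1.15 for macrophages and 1.03 to 1.40 for oocytes. Others were adipocytes (0 to 3.60, in 4 genes with a value), erythrocytes (1.07 to 1.65), smooth muscle (0.994 to 1.52), luteal cells (0.115 to 0.989, with Akr1c18, an enzyme that breaks down progesterone, the lowest), theca and interstitial cells (0.744 to 2.73) and oviduct epithelium (0.462 to 3.33). Some of these ends rest on few reads. In replicates 1, 2 and 3, Adipoq (ratio 0) had 5, 2 and 0 reads and Retn (3.60) had 1, 1 and 4. Dynlrb2 (3.33) had 0, 1 and 2 reads, and Insl3 (2.73) had 2, 5 and 11.

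**Figure D3:**
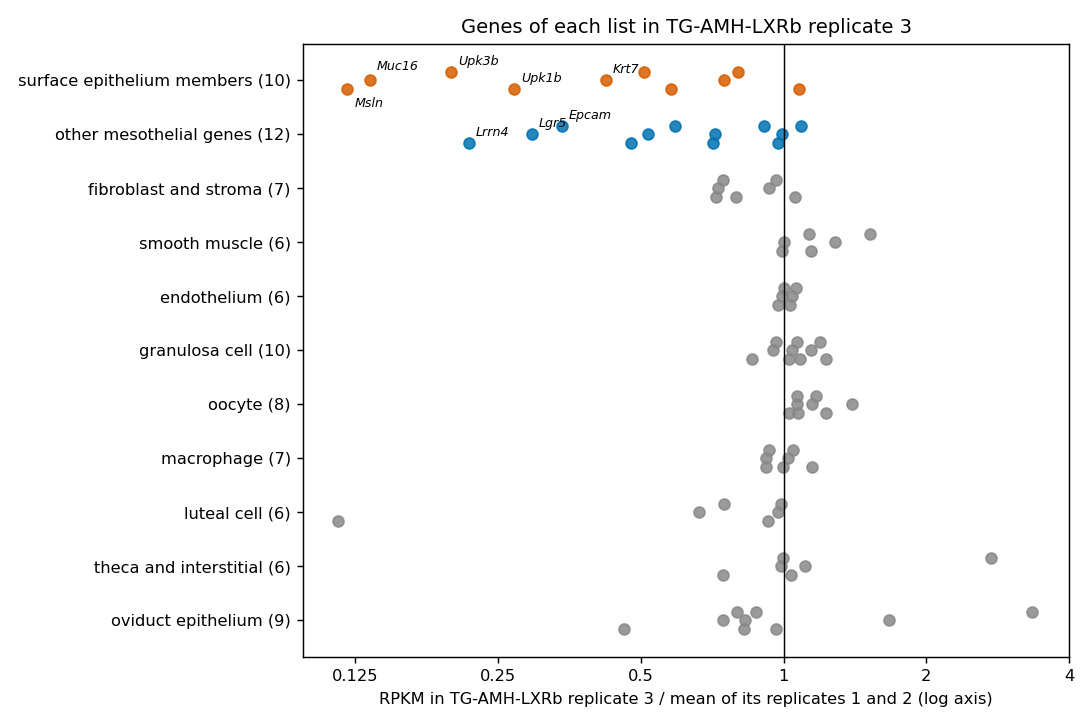
RPKM in transgene-labelled replicate 3 divided by the mean of replicates 1 and 2 (log axis), one point per gene, by list with the number of genes listed. Of the members 5 of 10 and 3 of the 12 other mesothelial genes lie below 0.45, and no gene of the fibroblast, endothelium, granulosa cell, oocyte, smooth muscle, macrophage, theca and interstitial or oviduct epithelium lists does. Below 0.5 lie 5 members, 1 luteal gene, 1 oviduct epithelium gene (at 0.462) and 4 other mesothelial genes. Among these mesothelial genes, Lgr5 was at 2.20 RPKM in replicate 2 against 0.669 and 0.422 RPKM in replicates 1 and 3. A luteal gene lies below 0.45, as do genes of lists not drawn: 1 adipocyte gene, 2 other keratins, 1 other uroplakin, 2 claudin and tight junction genes and 2 mucin and mesothelin-like genes. These genes of lists not drawn had 0 to 7 reads in replicate 3. The members below 0.45 had 65 (Krt7) to 171 (Upk3b) reads there, leaving out Msln, which gave no whole reads.

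WT replicate 1 was the highest of the 9 libraries for 8 of the 9 tested members, against 30.1% of all genes, in the deposited scaling. It was highest for 9 members with TMM or quantile normalization, for 4 with the plain total of reads (DKO replicate 3 also for 4) and for 2 with TPM (DKO replicate 3 for 7). In RPKM its 10 members summed to 66.7 RPKM against 32.8 and 46.0 RPKM in the other WT libraries. All 6 adipocyte markers were highest in it. They summed to 31.7 RPKM in WT replicate 1 against 10.5 and 11.98 RPKM in the other WT libraries, 12.9 to 16.3 RPKM in the transgene-labelled and 4.95 to 9.40 RPKM in the DKO libraries. Most of each sum was Plin1, at 22.0 RPKM in WT replicate 1, 11.9 to 15.8 RPKM in the transgene-labelled and 4.51 to 9.17 RPKM in the DKO libraries. Adipoq, Cfd and Retn were at 0 to 0.0742 RPKM in the transgene-labelled and 0 to 0.403 RPKM in the DKO libraries. Lep was listed at 0 in all of these libraries. Adipoq was 1.41 RPKM in WT replicate 1 and at most 0.146 RPKM elsewhere. Markers of other cells also stood apart there. Within WT, Cyp17a1, a theca enzyme of androgen synthesis, was at 956 RPKM in replicate 1 and at 164 and 190 RPKM in the others. Star, which carries cholesterol into mitochondria, was at 803 against 421 and 403 RPKM, and Hsd3b1 at 5517 against 4343 and 4492 RPKM. In the same theca and interstitial list Lhcgr (68.9 against 97.4 and 79.9 RPKM) and Ptch1 (3.60 against 4.29 and 4.75 RPKM) were lowest in replicate 1. Insl3 was at 0.0350, 0 and 0 RPKM. The granulosa markers summed to 1915 against 2707 and 2581 RPKM, with Inhba at 72.7 against 169 and 197 RPKM. Among them Amhr2 was highest in replicate 1 (41.0 against 34.3 and 34.4 RPKM) and Foxl2 lay between (37.1 against 40.3 and 33.8 RPKM). The oocyte markers summed to 16.1 against 35.2 and 30.9 RPKM, and the luteal markers to 409 against 1008 and 1448 RPKM. The part of these cells and of fat tissue in the members' WT level was not tested. Without WT replicate 1, 3 members remained lower in the transgene-labelled libraries (Cldn15, Krt19 and Lgals7), while Upk3b changed by -1.47 (adjusted p = 0.0634), Upk1b by -1.06 (adjusted p = 0.0708) and Krt8 by -0.44 (adjusted p = 0.0833). These changes are within 1.5 times of those with all libraries. The nuclear RNAs Malat1 and Neat1 summed to 295 to 337 RPKM in the transgene-labelled, 218 to 279 RPKM in the DKO and 1.89 to 11.9 RPKM in the WT libraries. This difference goes with the WT label and cannot be told apart from genotype, and its part in the comparisons with WT was not tested. Against WT, the transgene-labelled libraries also had 4 of 7 fibroblast and stroma markers lower (summed 297 to 374 RPKM against 469 to 557 RPKM in WT), 4 of 6 endothelium markers lower (63.2 to 73.8 against 88.8 to 96.4 RPKM), and 6 of 8 oocyte markers higher (50.1 to 71.6 against 16.1 to 35.2 RPKM). Lower as well were 3 of 6 smooth muscle markers (179 to 228 against 353 to 415 RPKM), 3 of 7 macrophage markers (82.0 to 86.7 against 117 to 151 RPKM) and 3 of 5 erythrocyte markers (198 to 285 against 361 to 1657 RPKM). Of all genes 22.3% were lower and 29.1% higher. In DKO against WT (25.9% lower, 30.8% higher), 5 of 6 endothelium and 3 of 6 smooth muscle markers were lower and 5 of 8 oocyte markers higher. Of fibroblast and stroma markers 2 of 7 were lower and 1 higher there, of macrophage markers 6 of 7 were higher, and 0 of 5 erythrocyte markers passed. In the transgene-labelled against the DKO libraries, 6 of 7 macrophage markers were lower (82.0 to 86.7 RPKM against 172 to 350 RPKM in DKO), as were 1.73% of all genes tested. The 5 erythrocyte markers, mostly globins, had a median log2 change of -2.38 in that comparison (198 to 285 against 562 to 2409 RPKM); none passed the test in limma, and all 5 had an unadjusted p under 0.05. Their part in the members' values was not tested.

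**Figure D4:**
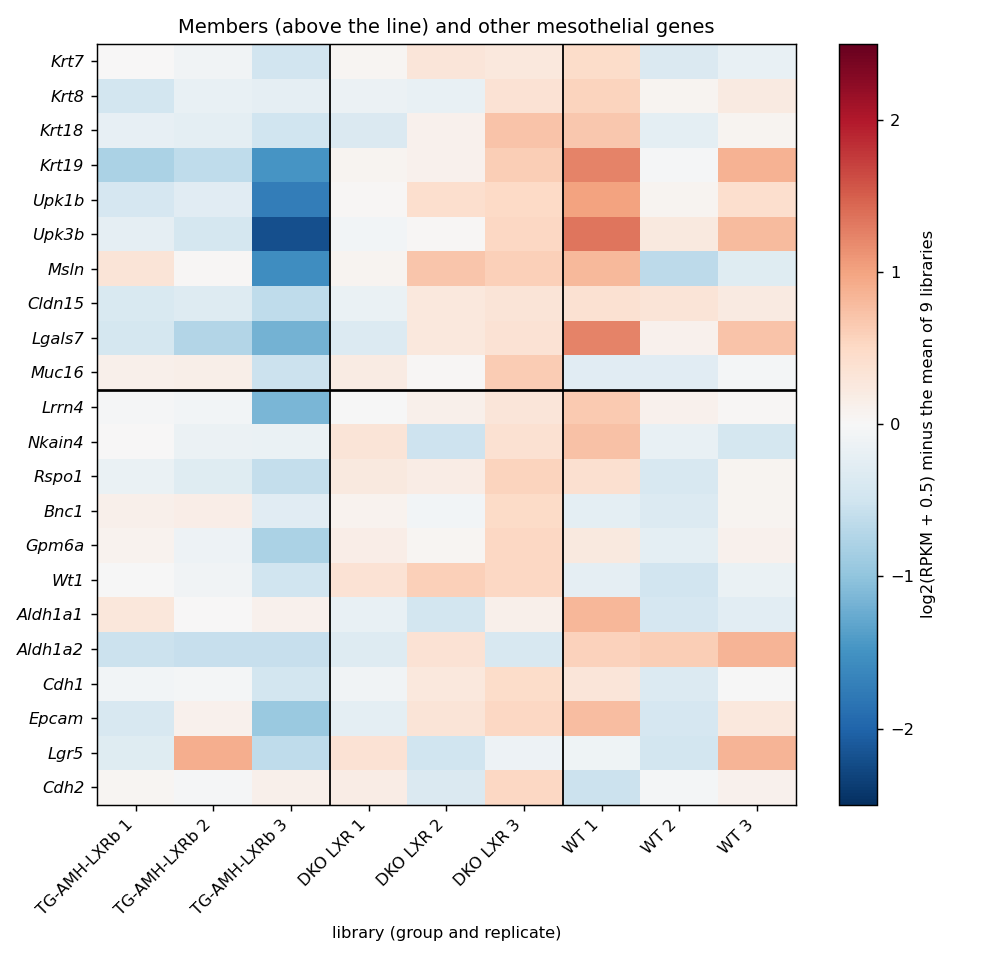
Log2(RPKM + 0.5) of the 10 members (above the line) and 12 other mesothelial genes in each library, minus the mean of the 9 libraries. Replicate 3 of the transgene-labelled group is dark blue for Upk3b, Upk1b, Msln and Krt19, and WT replicate 1 is red for most members.

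The other mesothelial genes had a smaller median change against WT than the members, though the lists were not tested against each other. Whether their reads came from the surface epithelium was not tested, so their median need not describe that layer. All 12 genes passed the filter. Against WT the transgene-labelled libraries had 0 higher (29.1% of all genes) and 1 lower (22.3% of all genes), with a median change of -0.15. That gene was Aldh1a2, at 25.3 ± 0.404 RPKM in the transgene-labelled libraries, 35.8 ± 11.3 RPKM in the DKO libraries and 60.9 ± 6.61 RPKM in the WT libraries (SD, n = 3 each; log2 change against WT -1.24 ± 0.19, SE, limma adjusted p = 0.000791). Between DKO and WT, Aldh1a2 was also lower (-0.80 ± 0.19, adjusted p = 0.00683) and Wt1 higher (0.78 ± 0.15, adjusted p = 0.00221), with a list median of 0.13. Of all genes 25.9% were lower and 30.8% higher there. Wt1 averaged 5.77 ± 1.07 RPKM in the transgene-labelled, 9.47 ± 0.823 RPKM in the DKO and 5.34 ± 0.677 RPKM in the WT libraries. Between the transgene-labelled and DKO libraries 0 of 12 passed, 3 had an unadjusted p under 0.05, and the median was -0.42. Of all genes 1.73% were lower and 0.498% higher there, and 15.8% had an unadjusted p under 0.05.

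Relatives of the members were mostly too low to test. Of 12 other keratins, 2 passed the filter. Krt10, a keratin of differentiating skin, averaged 1.71 RPKM in the transgene-labelled, 1.48 RPKM in the DKO and 0.762 RPKM in the WT libraries, and was higher than WT in both (limma adjusted p = 0.00216 and 0.00584). None of the 4 other uroplakins and none of 6 other mucins and mesothelin-like genes passed the filter. Of 19 other claudins and tight junction genes, 11 passed the filter. Other scalings were run for the members only. Of 7 other galectins 6 were tested, with 2 higher and 3 lower in the transgene-labelled against the WT libraries (29.1% and 22.3% of all genes). Lgals4 rose by 2.75 and Lgals8 by 0.80. Lgals1, the most abundant, averaged 304 RPKM in the transgene-labelled against 671 RPKM in the WT libraries.

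Over the 9 libraries, members tended to vary together, which is a description over libraries that share genotype and scaling. The 45 pairs of members had a median Pearson r of 0.73 on log2 values (0.05 to 0.97), and 0.67 after each genotype's mean was taken away. Upk1b and Upk3b were closest (r = 0.97), followed by Krt19 with Lgals7 (0.96) and Krt7 with Msln (0.95), while Krt8 was closest to Krt19 (0.85) and Muc16 to Msln (0.61). Among 12114 other genes with a mean of at least 1 RPKM, those most like the members' mean profile were Penk (r = 0.98), which encodes proenkephalin, Hsd17b2 (0.97), an enzyme that inactivates estradiol and testosterone, Gabra3 (0.95), Epcam (0.92), the metallothionein Mt1 (0.92) and Tmem100 (0.92). Penk was at 10.2, 8.58 and 3.98 RPKM in the transgene-labelled libraries, 10.1, 16.5 and 21.2 RPKM in the DKO libraries and 22.0, 11.3 and 16.2 RPKM in the WT libraries, lowest and highest in the same libraries as most members.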

How the data were processed

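The authors deposited 1 table of RPKM values for 54838 genes in 9 libraries, used as deposited. Per the submitters' processing notes, cutadapt, HISAT2 2.1.0, HTSeq 0.5.4p5, DESeq2 1.2.8 and the build mm10 were used; the RPKM step, the annotation and any use of strand were not given in the sources used here. Transgene columns, spelled AMB, were matched to the samples labelled AMH by group and number. RPKM times GENCODE M21 exon length gave whole reads for 97.8% of values above 0 (within 0.01 reads or 1e-06 relative), so 40.1 M to 59.4 M reads per library; Msln did not give whole reads. The library size behind RPKM was 0.793 to 0.920 of the total in WT libraries and 1.03 to 1.11 in others, so precision is that of the reads but levels carry the authors' rescaling.

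Genes with at least 0.5 RPKM in at least 3 libraries (18889, 9 members) were fitted with limma 3.58.1 in R 4.3.3 on log2(RPKM + 0.5), all 9 libraries together, with a mean-variance trend; folds understate low genes. Adjusted p is Benjamini-Hochberg, called under 0.05. On simulated reads the fit recovered 64% to 71% of 2-fold and 88% to 90% of 4-fold changes, with 6 to 12 false calls per comparison. Only genes of at least 1 RPKM were changed there, 100 at each fold per comparison, and the rescaling that differs between genotypes was not simulated. The comparisons with WT called far more genes than that, so these rates and false calls need not hold for them. Muc16, below the filter, had an exact permutation test. Named genes are all members, up to 3 genes per list with the smallest adjusted p, markers moving with a member, and the 6 genes most like the members' profile. Members and lists were chosen with earlier results of these data known. The alternatives were other pseudocounts, filters, scalings, limma-voom on reads, 6-library fits, the replicate block and leaving out each library. Promoters are RefSeq GRCm38.p6. A result that the rule for named genes selects is not reported here.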

Additional observations from a re-analysis of the deposited data

How the results depend on the processing

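Pseudocounts, filters, TMM, the plain total of reads, limma-voom and 6-library fits kept every member count within 1.5 times. For the transgene-labelled libraries against WT, 3 members were called lower with TPM and 3 to 6 when one library was left out; without WT replicate 1 the count was 3. For DKO against WT, 1 member was higher with TPM, 1 was lower with quantile normalization (Cldn15), and leaving out one library gave 0 to 2 lower (Krt19 and Lgals7 without WT replicate 2, Krt8 without DKO replicate 3). For transgene-labelled against DKO, leaving out one library gave 0 to 1 lower (Cldn15 without DKO replicate 1, adjusted p = 0.0238).

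Signs turned for DKO against WT with TPM at 0.24 for Krt8, 0.48 for Krt18, 0.079 for Krt19, 0.32 for Upk1b and 0.27 for Cldn15. With the plain total the values were 0.021 for Krt8, 0.28 for Krt18, 0.11 for Upk1b and 0.086 for Cldn15, and with limma-voom 0.023, 0.32, 0.12 and 0.12 for the same genes. Quantile normalization gave -0.33 for Krt7. Leaving out one library gave -0.29 to 0.26 for Krt18 and -0.40 to 0.072 for Upk1b. For transgene-labelled against WT, TPM gave 0.085 for Krt7 and 0.035 for Msln, and Msln ran from -0.71 to 0.23 with one library left out. The cause was not tested.

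Replicate numbers did not pair the samples: correlations of same-numbered deviations were between -0.309 and 0.142. The replicate block kept the same 6 members lower against WT and none in the other comparisons, while over all genes the transgene-labelled against DKO calls were 21 higher and 78 lower in place of 94 and 327, and 19 and 38 with 6 libraries. Krt7 fell below the filter in some settings and Msln had no limma-voom value.

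Over all genes, calls against WT depend on the scaling. DKO against WT had 10302 higher and 1056 lower with TPM, 8354 and 2307 with the plain total and 8085 and 2216 with limma-voom, in place of 5821 and 4889; for the transgene-labelled libraries these were 9981 and 987, 7583 and 2230, and 7376 and 2055, in place of 5491 and 4214. The median of all genes moved by 0.27 and 0.23 with the plain total and by 0.32 and 0.28 with limma-voom, and the higher share of calls was 45.9% with TMM and 45.6% with quantile normalization for the transgene-labelled libraries. Transgene-labelled against DKO gave 68 and 162 without a filter, and 8 to 112 higher and 23 to 323 lower with one library left out.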
